A study of Mus musculus with 8 samples.

Results

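In lists of modified adenines from DNA bound to the histone variant H2A.X, 798 called adenines stood between a guanine and a thymine, of 17418 called adenines in all. These GAT sites were chosen by their bases alone, with G at base 20, the called A at base 21 and T at base 22 of the 41-base context that the lists give for each call. Of the 798, 109 had a C at base 23, which makes the palindrome GATC, and 689 did not. KO L held 107 GAT sites of 3044 called adenines, WT L 173 of 3862, KO S 149 of 3370 and WT S 369 of 7142. The palindrome accounted for 13 of the GAT sites in KO L, 32 in WT L, 19 in KO S and 45 in WT S.

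The DNA came from TT2, a mouse embryonic stem (ES) cell line of C57BL6 x CBA origin at passage 5 to 10, kept without feeder cells and either carrying a knockout of Alkbh1 (KO) or wild type (WT). In both genotypes native chromatin, which is not crosslinked, was precipitated with a customized H2A.X antibody, and a part of the DNA labelled L and a part labelled S were each sequenced on single molecules. The labels do not say whether the knockout is 1 clone. Each of the 4 groups had 2 replicates that share 1 list, so no difference between genotypes or between parts has a replicate check. A list of modified bases shows neither the cell type nor whether Alkbh1 is intact.

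As background, the Dam methyltransferase of Escherichia coli and related bacteria puts a methyl group on the N6 position of the adenine of GATC. The word reads the same on both strands, so Dam methylates the adenine of each strand, and a fully methylated copy carries a pair of marks 1 base apart. Mammals have no Dam, and the amount of N6-methyladenine in mammalian DNA is disputed. Alkbh1 encodes a dioxygenase of the AlkB family that has been described as a demethylase of this base. In single-molecule sequencing the polymerase slows at a modified base, and the pause is given as an inter-pulse duration (IPD) ratio, the observed pause over the one predicted without a modification.

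The palindrome sites with the best identification as N6-methyladenine show what the GATC calls look like. The identification score states how well the kinetics fit that base, and 2 GATC sites at the top of each list are given, ties being settled by the score of the call and then by coverage, with the palindrome in capitals, its called adenine being the second capital. Coordinates are mm10, 1-based, and each sequence is read 5′ to 3′ on the strand of the call.
KO L, chr11:99114801-99114841, minus strand: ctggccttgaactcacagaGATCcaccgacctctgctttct
KO L, chr17:69303269-69303309, plus strand: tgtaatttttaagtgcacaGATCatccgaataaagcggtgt
WT L, chr5:129560908-129560948, minus strand: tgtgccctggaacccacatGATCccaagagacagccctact
WT L, chr14:92295994-92296034, plus strand: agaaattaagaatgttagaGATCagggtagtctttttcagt
KO S, chr13:19621892-19621932, plus strand: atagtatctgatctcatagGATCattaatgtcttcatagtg
KO S, chr17:57011662-57011702, minus strand: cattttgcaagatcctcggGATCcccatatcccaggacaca
WT S, chr12:55574982-55575022, minus strand: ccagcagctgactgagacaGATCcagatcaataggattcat
WT S, chr2:85535302-85535342, minus strand: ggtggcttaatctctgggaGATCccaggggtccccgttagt
The chromosome 5 site lay in Sfswap, a splicing regulator gene, and the other 7 lay in no protein-coding or lncRNA gene of the RefSeq table. Their identification scores were 16 and 10 in KO L, 19 and 13 in WT L, 15 and 15 in KO S, and 34 and 24 in WT S. In KO L 3 sites tied at 10. Their IPD ratios ran from 1.79 at the KO S site on chromosome 13 to 6.95 at the WT S site on chromosome 2, with coverage of 7 to 18.

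The adenine on the opposite strand was called at none of the 109 GATC sites. In any GAT the base opposite the T is an adenine 1 base on, and in GATC that adenine also stands in GATC. By list it was called at 0 of 13 sites in KO L, 0 of 32 in WT L, 0 of 19 in KO S and 0 of 45 in WT S. With none called, a limit of 3 counts of the total is a share of 23.1%, 9.38%, 15.8% and 6.67% in the same lists and 2.75% over the 4 lists together, where the exact two-sided interval ends at 3.33%. Among all called adenines before a thymine, the opposite adenine was called at 0% of 786 in KO L, 0.508% of 1180 in WT L, 0.433% of 923 in KO S, and 0.728% of 2199 in WT S. The 0 of 109 is near that background, so it does not set GATC apart from other contexts. The lists do not give the coverage of bases that were not called, so the depth at the opposite adenines is unknown.

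Pairs of calls across the strands were found at 3 of the 689 GAT sites without a C after the T, all in WT S. These 3 sites read GATT, and they are given here with GAT in capitals because they are the GAT sites with calls on both strands.
WT S, chr6:80305338-80305378, plus strand: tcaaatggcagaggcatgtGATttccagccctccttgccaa
WT S, chrX:28151259-28151299, minus strand: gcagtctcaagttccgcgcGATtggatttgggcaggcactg
WT S, chrX:28151467-28151507, minus strand: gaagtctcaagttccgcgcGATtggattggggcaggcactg
The chromosome 6 site lay in Lrrtm4, which encodes a leucine-rich repeat protein of synapses. Its IPD ratio was 2.20 at coverage 31, and that of its partner at position 80305359 was 1.88 at coverage 31, with modified fractions of 85.8% and 78.2%. The sites on chromosome X were 208 bases apart and had equal bases at 39 of 41 positions. Counted from the 5′ end of the context, the copy called at 28151487 differed from the one called at 28151279 by C2A and T29G. The site at 28151279 had an IPD ratio of 7.10 and a modified fraction of 99.8%, and its partner at 28151278 had an IPD ratio of 4.64 but a modified fraction of 0%. At the other copy the IPD ratio was 2.82 at 28151487 and 3.04 at its partner 28151486, with fractions of 93.8% and 100%. Over the lists, the opposite-strand share of GAT sites minus that of other called adenines before a thymine averaged -0.25 percentage points, above 0 in 1 of 4 lists (exact paired permutation test over lists, two-sided, p = 0.50, adjusted over 10 tests p = 0.71). This test cannot give a p below 0.13 with 4 lists.

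The GAT share of called adenines was above that of a local background in both WT lists, where the background lay below the exact interval. In both KO lists that background, which is low for GAT by its construction, lay inside the interval. The share of called adenines in GAT was 3.52% in KO L (exact 95% interval 2.89% to 4.23%), 4.48% in WT L (3.85% to 5.18%), 4.42% in KO S (3.75% to 5.17%) and 5.17% in WT S (4.66% to 5.71%). The remaining adenines of those contexts on the called strand served as a local background, and GAT made up 3.48%, 3.48%, 3.76% and 3.74% of them in that order. Adenines directly before or after the called one cannot stand in GAT, yet they were counted in this background. This lowers it by an amount that was not computed. Against the background as counted, the called share was 1.01, 1.29, 1.17 and 1.38 times as high. Called minus background was above 0 in 4 of 4 lists, with a mean of 0.78 ± 0.59 points (SD, n = 4 lists; exact paired permutation test, two-sided, p = 0.13, adjusted p = 0.42). That is the smallest p that 4 lists allow. Because the background is low by construction, the sign in KO L, at 0.036 points, cannot be decided. At coverage of 25 or more the mean was -0.44 points, the other way, and it was 0.18 points when the dense windows, which hold most of the deep calls of the L lists, were also left out. At an identification score of 10 or more the mean was 0.12 points, and the lowest list stood at -0.97. At a score of the call of 30 or more the mean was 0.97 points, with the lowest list at 0.48.

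**Figure D1:**
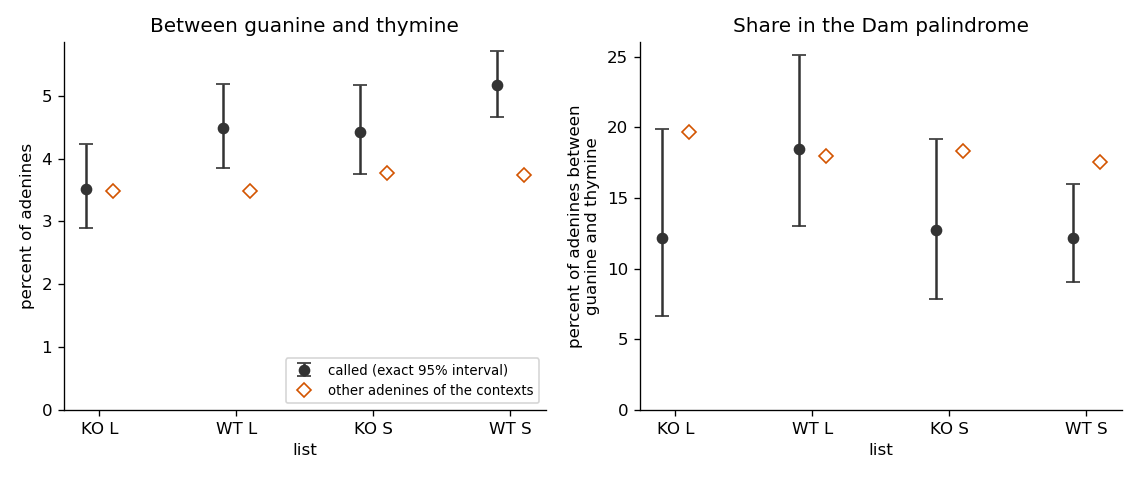
Left, percent of adenines that stand between guanine and thymine, for called adenines (black points, exact 95% intervals, counting error only) and for uncalled and called neighbours in their contexts (open diamonds). Right, the percent of those adenines that lie in the Dam palindrome. The called share on the left is 3.52% in KO L and 5.17% in WT S, against backgrounds of 3.48% and 3.74%, and on the right the called point lies below its diamond in each list but WT L. The diamonds on the left count adenines beside the called one, which cannot stand in GAT, so they lie low.

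The GAT share was lower in KO than in WT in both parts, and the exact intervals of the shares overlapped. The GAT share in KO was -0.96 percentage points from that in WT in L (95% interval -1.90 to -0.0096, built from the exact limits of both shares) and -0.75 points from it in S (-1.60 to 0.16). Median coverage at GAT sites was 9 in KO L and 11 in WT L, and 10 in KO S and 14 in WT S, and its part in the difference was not tested. The exact intervals of KO L and WT L shared the stretch between 3.85% and 4.23%, and those of KO S and WT S the stretch between 4.66% and 5.17%. S minus L had the same sign in both genotypes, with 4.42% in KO S against 3.52% in KO L, and 5.17% in WT S against 4.48% in WT L. The GATC share of all called adenines was 0.427% in KO L (0.228% to 0.729%), 0.829% in WT L (0.567% to 1.17%), 0.564% in KO S (0.340% to 0.879%) and 0.630% in WT S (0.460% to 0.842%). The GATC share in KO was -0.40 points from that in WT in L (95% interval for counting error -0.79 to -0.0022) and -0.066 points from it in S (-0.37 to 0.29). Both intervals in L end just below 0, and they rest on 1 list a genotype. For the GAT share in L the interval covered 0 without dense windows (-0.94 points, -1.99 to 0.12). It also covered 0 on chromosomes 1 to 19, X and Y only (-0.94 points, -1.93 to 0.063). At a score of 30 or more that difference was -0.24 points (-2.37 to 1.92).

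GATC was not over-represented among the GAT calls. GATC sites were 12.1% of the GAT sites in KO L (exact interval 6.63% to 19.9%) and 18.5% in WT L (13% to 25.1%), 12.8% in KO S (7.86% to 19.2%), and 12.2% in WT S (9.04% to 16%). Among the uncalled and called GAT adenines elsewhere in the contexts it made up 19.7%, 18%, 18.3% and 17.6%. Called minus background averaged -4.49 ± 3.50 points (SD, n = 4 lists), below 0 in 3 of 4 lists (exact paired permutation test, two-sided, p = 0.25, adjusted p = 0.42). In WT S the background lay above the interval of the called share, and in the other 3 lists it lay within it.

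GATC adenines next to a call were called about as rarely as other adenines there. On the strand of a call and within its context, 240 further GATC adenines were present in KO L, 278 in WT L, 262 in KO S and 538 in WT S. None of these was called in KO L or KO S. In WT L 3 were called, or 1.08% (exact interval 0.223% to 3.12%), and in WT S 1 was called, or 0.186% (0.00471% to 1.03%). For GAT adenines as a whole the numbers were 1 of 1227 in KO L, 9 of 1553 in WT L, 7 of 1411 in KO S and 24 of 3027 in WT S. Of all adenines so placed, 0.685% were called in KO L, 0.624% in WT L, 0.597% in KO S and 0.91% in WT S, so nothing in these counts is particular to GATC. These neighbours lie within 20 bases of a called base, yet their own coverage is not listed.

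The base that followed GAT most often was adenine, in each list. GATA made up 33.6% of GAT sites in KO L (24.8% to 43.4%), 38.2% in WT L (30.9% to 45.8%), 35.6% in KO S (27.9% to 43.8%) and 34.7% in WT S (29.8% to 39.8%). Its background shares were 23.5%, 28.3%, 25.6% and 27.9%, below the interval in each list. GATG made up 29.9%, 22%, 18.8% and 22%, against backgrounds of 30.1%, 27.8%, 29.5% and 28.1%. GATT was above its background in S, with 32.9% against 26.6% in KO S and 31.2% against 26.3% in WT S, and below it in L, with 24.3% against 26.7% in KO L and 21.4% against 25.9% in WT L. The backgrounds of the base before GAT lay inside the exact intervals, and cytosine was the rarest there, at 2.80% in KO L, 2.31% in WT L, 4.70% in KO S and 4.88% in WT S.

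**Figure D2:**
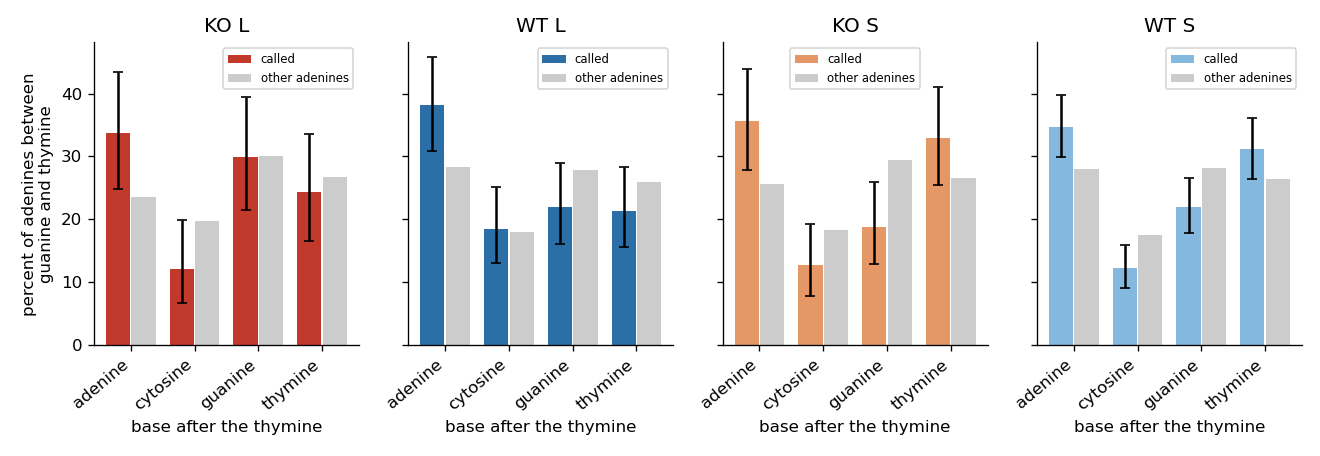
Percent of adenines between guanine and thymine by the base after the thymine, 1 panel a list, for called adenines (coloured bars, exact 95% intervals for counting error) and the other such adenines of the contexts (grey bars). The bar for adenine stands above grey in each panel, for example 38.2% in WT L, and the bar for cytosine, the palindrome, stands below grey in KO L, KO S and WT S.

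GATA is also the centre of the words bound by the GATA family of transcription factors, which act in blood and endoderm development among other tissues. The words GATAA and GATAG after an A or a T, searched at the called base on its own strand, held 18 of 107 GAT sites in KO L (16.8%), 24 of 173 in WT L (13.9%), 20 of 149 in KO S (13.4%) and 50 of 369 in WT S (13.6%). Among other GAT adenines of the contexts the shares were 9.06%, 10.6%, 8.62% and 10.3%. This background lay below the exact interval in KO L only (10.3% to 25.3%). It lay inside the interval in WT L (9.1% to 19.9%), KO S (8.4% to 19.97%) and WT S (10.2% to 17.5%). Each of these words contains GATA, which was itself above its background, and whether the words exceed what GATA gives was not tested. On either strand, 7.26%, 7.74%, 6.59% and 7.73% of all 41-base contexts in these lists held such a word, as did 29.6% of RefSeq promoters, which are longer and run from 250 bases before to 50 after a gene start. A word is a description and does not show that a factor binds there.

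Around the called adenine, more adenine at base +2 and more thymine at base +5 were seen than around other GAT adenines of the contexts. Outside the 8 densest windows of 100 kb, adenine at +2 was more frequent by 9.58 points in KO L, 8.93 in WT L, 8.85 in KO S and 6.67 in WT S, and thymine at +5 by 10.9, 12, 9.73 and 5.18 points. These were the largest of the mean differences over 72 combinations of base and distance, so they are a description without a test. Adenine was less frequent in each of the 4 lists at -10, -8, -7, -6, +5, +7, +8, +9 and +10, with a mean difference of -8.06 points at -6. The flanks of the other GAT adenines were counted with the called adenine of the context among them. This raises adenine and lowers the other bases in that background at each distance. Part of the lower adenine and of the higher thymine at +5 is thus built in, by an amount not computed. Against called adenines before thymine but not after guanine the signs were mixed. GAT minus those sites was -2.01, 1.16, -3.10 and -3.14 points for adenine at +2 and 6.91, -1.94, 2.04 and -4.30 points for thymine at +5.

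**Figure D3:**
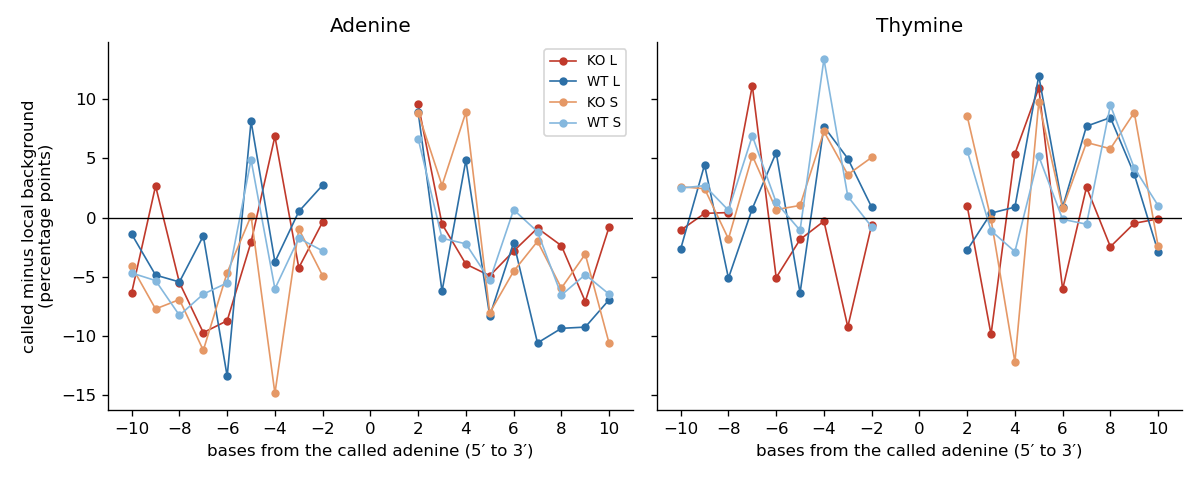
Difference in percentage points between called adenines of the GAT context and other adenines of that context in the same 41-base windows, by distance from the called base, for adenine (left) and thymine (right), outside dense windows. The 4 lists lie together above 0 at +2 for adenine (6.67 to 9.58 points) and at +5 for thymine (5.18 to 12 points), and below 0 for adenine at 9 other distances, among them -6 and +5. The background counts the called adenine itself wherever it falls at a distance, which shifts the adenine panel down and the thymine panel up.

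Other contexts before thymine exceeded their background by a larger ratio than GAT did in each list, namely CAT and TAT. Adenine after cytosine (CAT) had 1.62 times its background share in KO L, 2.11 in WT L, 1.73 in KO S and 2.12 in WT S, and TAT had 1.42, 1.65, 1.20 and 1.44 times. AAT stood at 0.961, 1.01, 1.00 and 1.03 times. An adenine directly after the called one can count in the background as AAT, but not as GAT, CAT or TAT. The AAT ratios are thus not on a like footing with the others, and the background share of GAT before thymine is lowered. As a share of called adenines before thymine, GAT made up 13.6%, 14.7%, 16.1% and 16.8%, against 16.6%, 16.7%, 17.3% and 17.5% of such adenines in the background. This difference was below 0 in 4 of 4 lists, with a mean of -1.71 ± 1.00 points (SD, n = 4 lists; exact paired permutation test, two-sided, p = 0.13, adjusted p = 0.14, chosen after the values were seen). It was taken over all windows. Dense windows held 14.4%, 10.5%, 14.9% and 10.5% of the other called adenines before thymine, against 0.93%, 1.16%, 0.67% and 1.36% of GAT sites. The difference outside them was not computed, so its sign there is not known.

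Few GAT calls lay in the windows where calls were densest. A window of 100 kb was taken as dense when 10 or more sites lay in it in any list, and 8 windows did. They held 1 GAT site of 107 in KO L, 2 of 173 in WT L, 1 of 149 in KO S and 5 of 369 in WT S, and none of these was GATC. Of the other called adenines before thymine, 14.4%, 10.5%, 14.9% and 10.5% lay there. GAT minus other was -11.6 ± 2.65 points (SD, n = 4 lists), below 0 in 4 of 4 (exact paired permutation test, two-sided, p = 0.13, adjusted p = 0.14, chosen after the values were seen). How often GAT occurs in the sequence of these windows is not given here. The part of that sequence in the difference was not tested. Unplaced contigs held 4 GAT sites among 810 called adenines (0.494%), and chromosome 9 held 40 among 1259 (3.18%). The other numbered chromosomes ranged from 3.49% on chromosome 18 to 6.42% on chromosome 12, and chromosome Y held 4 of 175 (2.29%).

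None of the 798 GAT sites was called at the same base in another list, while 6.93% of all called sites in KO L, 5.93% in WT L, 6.08% in KO S and 3.84% in WT S were. Outside the dense windows, where nearly all GAT sites lay, such calls made up 0.298% of all sites in KO L (8 of 2687), 0.229% in WT L (8 of 3498), 0.332% in KO S (10 of 3014) and 0.152% in WT S (10 of 6571). For GAT sites outside those windows, a count of 0 allows a share of up to 2.83%, 1.75%, 2.03% and 0.824% in the same lists by the limit of 3 counts, and 3.42%, 2.13%, 2.46% and 1.01% by the exact interval, above each of these values. The 0 of 798 thus does not set GAT apart from other calls outside the dense windows.

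Some GAT sites that lay at different places carried the same sequence. The 17 bases around the call were shared by 2 or more sites in 9 cases, with 28 sites in all, which were singled out after their values were seen. The commonest case held 8 sites on 6 chromosomes, 1 in KO S, 2 in WT L and 5 in WT S, and 4 of them are given with GAT in capitals.
KO S, chr8:25966521-25966561, minus strand: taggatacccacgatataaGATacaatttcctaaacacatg
WT L, chr14:16744324-16744364, plus strand: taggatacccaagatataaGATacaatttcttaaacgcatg
WT S, chr12:101224312-101224352, minus strand: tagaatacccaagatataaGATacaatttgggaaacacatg
WT S, chrX:163120265-163120305, minus strand: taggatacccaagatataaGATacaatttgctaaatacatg
Against the KO S site, the other 7 had 35 to 40 equal bases of 41. IPD ratios of the 8 ran from 1.80 to 4.41 at coverage of 7 to 39, and identification scores from 4 to 15. The chromosome 8 site lay in Hgsnat, which encodes a lysosomal acetyltransferase, and the chromosome 14 site in Rarb, the retinoic acid receptor beta gene.

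A further shared stretch, with 4 sites on 4 chromosomes, 1 in KO S and 3 in WT S, is known as background from B1, a short interspersed repeat family of the mouse genome. No repeat annotation was used here.
KO S, chr9:59861853-59861893, minus strand: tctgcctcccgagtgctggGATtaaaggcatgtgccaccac
WT S, chr2:28582223-28582263, minus strand: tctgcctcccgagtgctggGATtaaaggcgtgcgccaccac
The KO S site lay in Myo9a, an unconventional myosin gene, and the WT S site in Gtf3c5, which encodes a subunit of the RNA polymerase III factor TFIIIC. IPD ratios of the 4 sites ran from 1.71 to 6.35. The GAT sites with the highest identification score in WT L and in WT S, apart from the palindrome, also shared all 41 bases although they lay at 2 places on chromosome 3.
WT L, chr3:26949535-26949575, minus strand: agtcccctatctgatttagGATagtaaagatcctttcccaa
WT S, chr3:12476237-12476277, plus strand: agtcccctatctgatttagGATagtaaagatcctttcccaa
In the KO lists the corresponding sites differed in sequence.
KO L, chr14:40448310-40448350, plus strand: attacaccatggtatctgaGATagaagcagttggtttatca
KO S, chr1:43629550-43629590, minus strand: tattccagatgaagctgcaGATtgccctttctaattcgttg
Identification scores of the KO sites were 32 in KO L and 26 in KO S, with IPD ratios of 3.94 and 2.97 at coverage of 16 and 13. Those of the WT sites were 29 in WT L and 48 in WT S, with IPD ratios of 6.62 and 4.22 at coverage of 7 and 20. The WT L site lay in Spata16, a gene of sperm development. How the aligner placed reads of repeated sequence is not given in the sources used here.

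The differences in kinetic signal between GATC sites and the other GAT sites were of both signs among the lists. The median IPD ratio of GATC sites was 2.60 in KO L (range 1.68 to 5.51), 2.69 in WT L (1.79 to 8.01), 2.73 in KO S (1.79 to 12.9) and 2.61 in WT S (1.76 to 10.7). For the other GAT sites it was 2.70, 2.55, 2.67 and 2.71. GATC minus other was -0.10, 0.14, 0.07 and -0.10, with a mean of 0.0013 ± 0.12 (SD, n = 4 lists; exact paired permutation test, two-sided, p = 1.0). Median identification scores were 7, 6.5, 7 and 6 at GATC and 7, 7, 6 and 7 at the other GAT sites (mean difference -0.13, exact permutation p = 1.0). An identification score of 20 or more was reached by 0 of 13 GATC sites in KO L, 0 of 32 in WT L, 0 of 19 in KO S and 4 of 45 in WT S.

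The modified fraction, an estimate given at coverage of 11 or more only, had few values at GATC. Its median there was 96.8% in KO L (4 sites), 74.1% in WT L (15 sites), 48.2% in KO S (2 sites) and 71.9% in WT S (31 sites). At the other GAT sites it was 86.3% (36 sites), 92.6% (72), 97.7% (68) and 93.4% (219). GATC was lower in 3 of 4 lists, with a mean difference of -19.7 ± 24.6 points (SD, n = 4 lists; exact paired permutation test, two-sided, p = 0.25, adjusted p = 0.42). The KO S value rests on 2 sites, and without KO S the mean was -9.8 points. The KO L value, the only one above 0, rests on 4 sites, and without KO L the mean was -29.8 points. Of the context bases outside GAT, G and C made up 46.8%, 49.8%, 43.9% and 48.1% at GATC in KO L, WT L, KO S and WT S. Around the other GAT sites outside dense windows they made up 43%, 41%, 42.7% and 40.7%. This count includes the base after GAT, which is C in each GATC site and never C in the others. Part of the difference was thus set by the rule, and the part of G and C content in the modified fractions was not tested.

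Against other called adenines before thymine, GAT sites had a slightly higher median IPD ratio in 4 of 4 lists. It was 2.68 in KO L, 2.58 in WT L, 2.70 in KO S and 2.70 in WT S at GAT, and 2.52, 2.47, 2.56 and 2.52 at the others. The mean difference was 0.15 ± 0.03 (SD, n = 4 lists; exact paired permutation test, two-sided, p = 0.13, adjusted p = 0.42), and 0.06 ± 0.03 outside dense windows. The median modified fraction was higher at GAT by 13.1, 3.3, 11.7 and 1.95 points, with a mean of 7.51 (exact permutation p = 0.13, adjusted p = 0.42). This difference turned with the dense windows left out, where it was -3.05, -7.30, 1.65 and -1.40 points with a mean of -2.53. Against all called adenines outside GAT, without dense windows, the fraction was higher at GAT in 4 of 4 lists, by 18.7, 12.3, 19.9 and 18.6 points.

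**Figure D4:**
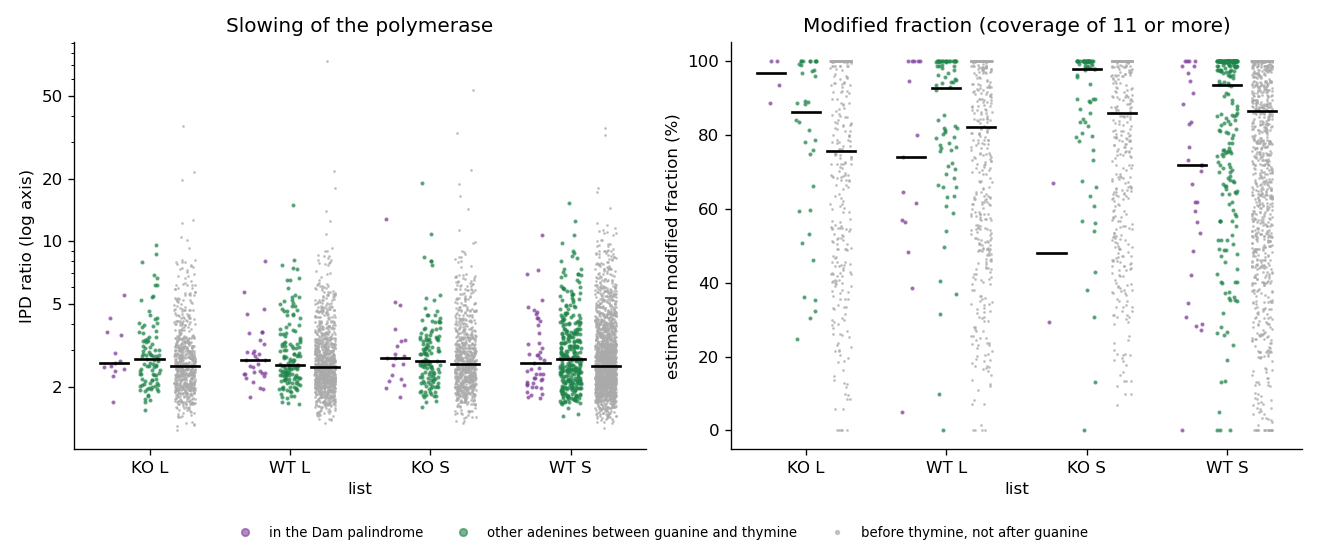
IPD ratio (left, log axis) and estimated modified fraction (right, at coverage of 11 or more) of each called adenine, by list, for the Dam palindrome, the other adenines between guanine and thymine, and adenines before thymine that do not follow guanine. Each point is a site and each black line a median, for example IPD ratios of 2.61, 2.71 and 2.52 in WT S.

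Few GAT sites had deep coverage or a firm identification. Outside dense windows coverage reached 25 at 4.72% of GAT sites in KO L, 1.75% in WT L, 4.05% in KO S and 10.4% in WT S, against 3.87%, 3.61%, 6.28% and 12.5% of all other called adenines, so that the sign was mixed. With dense windows, where the other calls were often deep, the shares were 5.61%, 2.31%, 4.03% and 11.7% at GAT and 14.4%, 12.4%, 15.5% and 19% at the others. Outside dense windows the identification score reached 20 at 7 of 106, 8 of 171, 5 of 148 and 37 of 364 GAT sites, which was below the share at other called adenines in 4 of 4 lists, by a mean of -4.66 points (exact paired permutation test, two-sided, p = 0.13, adjusted p = 0.14, chosen after the values were seen). Of the other contexts before thymine, AAT and TAT were near GAT in KO L (5.20% and 6.98% against 6.60%) and WT S (10.6% and 9.49% against 10.2%). They were above GAT in WT L (5.81% and 8.19% against 4.68%) and in KO S (10.1% and 9.84% against 3.38%). CAT was above GAT in each list, at 16.5% in KO L, 13.7% in WT L, 13.1% in KO S and 17.8% in WT S. By the score of the call, which is 20 or more in each list, the GAT share outside dense windows was 3.59%, 4.78%, 4.41% and 4.78% at scores of 20 to 24 and 6.90%, 5.88%, 6.67% and 9.87% at 40 or more, where only 4, 4, 5 and 30 GAT sites remained. Over all windows the share at scores of 30 or more was 3.65%, 3.89%, 4.08% and 5.82%, below the share at any score in WT L and KO S.

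Split by coverage, the L lists stood closer together at low coverage than at middle coverage, in classes chosen after the values were seen. At coverage of 6 to 10, outside dense windows, GAT made up 4.51% of called adenines in KO L (exact interval 3.51% to 5.69%) and 4.56% in WT L (3.67% to 5.61%). At coverage of 11 to 24 it made up 3.11% in KO L (34 of 1095 sites, 2.16% to 4.31%) and 5.50% in WT L (82 of 1491, 4.40% to 6.78%), and these intervals did not overlap. In S the shares were 5.47% in both KO and WT at coverage of 6 to 10, and 4.56% in KO (3.52% to 5.79%) and 5.78% in WT (5.04% to 6.59%) at 11 to 24. With coverage of 25 or more 5, 3, 6 and 38 GAT sites were left in KO L, WT L, KO S and WT S, with wide intervals. Whether the difference depends on coverage was not tested.

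**Figure D5:**
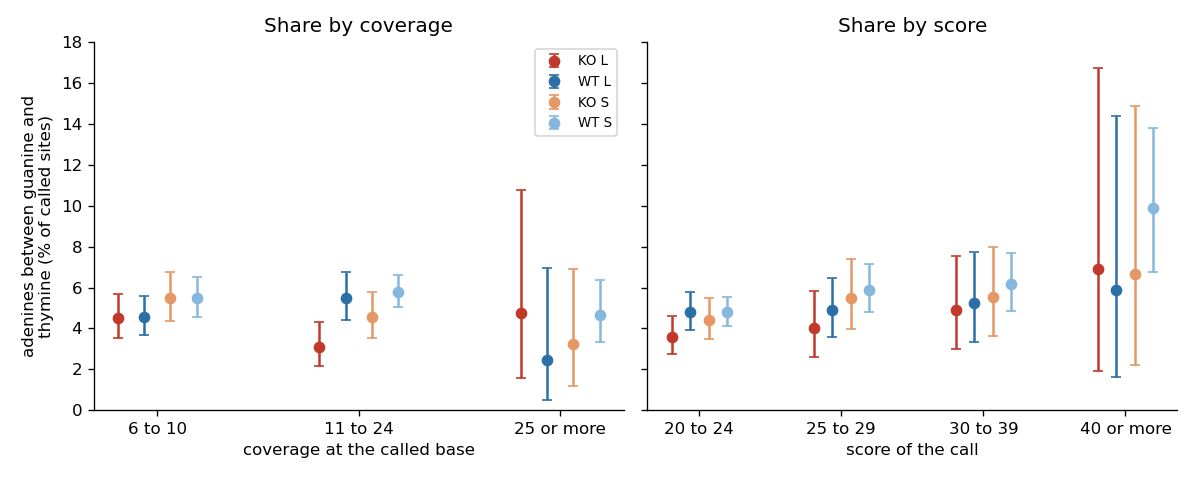
Percent of called adenines that stand between guanine and thymine by coverage at the base (left) and by score of the call (right), outside dense windows. Points are lists and bars are exact 95% intervals for counting error. In the middle coverage class KO L is at 3.11% and WT L at 5.50%.

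Along the genome GAT sites had fewer close neighbours than all other calls together, while other calls before thymine were also low. Outside dense windows another call lay within 100 bases for 8.49% of GAT sites in KO L, 9.94% in WT L, 13.5% in KO S and 15.4% in WT S, against 17%, 14.8%, 19.2% and 21.9% of the other called adenines. GAT minus other was below 0 in 4 of 4 lists, with a mean of -6.38 ± 1.55 points (SD, n = 4 lists; exact paired permutation test, two-sided, p = 0.13, adjusted p = 0.14, chosen after the values were seen). Called adenines before thymine but not after guanine stood at 15% in KO L, 11.1% in WT L, 15.5% in KO S and 15.7% in WT S, within 2 points of GAT in the last 3 lists. Within 10 bases, 1 of the 109 GATC sites had another call, in WT S.

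Genes held 41.1% of the GAT sites on chromosomes in KO L (exact interval 31.7% to 51.0%), 46.8% in WT L (39.1% to 54.6%), 52.7% in KO S (44.3% to 61.0%) and 45.7% in WT S (40.5% to 50.9%). The other called adenines stood at 46.1%, 48.6%, 46.2% and 48.7%, inside the GAT interval in each list. In all, 384 of 34610 protein-coding and lncRNA genes held a GAT site, and 54 of the 109 GATC sites lay in one. These were 3 of 13 GATC sites in KO L (23.1%, exact interval 5.04% to 53.8%), 20 of 32 in WT L (62.5%, 43.7% to 78.9%), 9 of 19 in KO S (47.4%, 24.4% to 71.1%) and 22 of 45 in WT S (48.9%, 33.7% to 64.2%), with intervals that overlapped. A single gene held 3 or more. This was Sgcz (chromosome 8, 37517840 to 38661705), which encodes zeta-sarcoglycan of a muscle membrane complex. It held 2 sites in KO S, 1 in WT L and none in the other lists, and none of them was GATC. The KO S sites lay close together on opposite strands, at positions 37586950 and 37587035. With the distant WT L site the span was 1019064 bases. Sgcz is 1144 kb long, against a median of 12.8 kb over all genes used. Genes with called adenines of any context are not given here for comparison.

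Near gene starts, 4 GAT sites lay between 250 bases before and 50 bases after a RefSeq start, of 57 called adenines of any context, and none of the 4 was GATC. The 3 that lay before the start are shown, and these genes were chosen after their values were seen.
WT L, Grb2, chr11:115699535-115699575, minus strand: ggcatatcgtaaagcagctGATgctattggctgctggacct
WT S, Olfr1373, chr11:52145576-52145616, plus strand: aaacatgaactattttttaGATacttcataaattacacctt
WT S, Scai, chr2:39190831-39190871, plus strand: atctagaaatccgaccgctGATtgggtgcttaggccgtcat
The Tcl1 site lay 37 bases after the start of a gene for an AKT coactivator that is active in ES cells, with an IPD ratio of 5.52 at coverage 20, a modified fraction of 97.7% and an identification score of 17. The Grb2 site lay 21 bases before the start of an adaptor gene of receptor tyrosine kinase signalling, with an IPD ratio of 4.62 at coverage 6. The sites at Olfr1373, an odorant receptor gene, and Scai, a suppressor of cancer cell invasion, lay 68 and 121 bases before the start, with IPD ratios of 4.10 and 1.92 at coverage of 13 and 21. Tcl1 was 1 of 26 pluripotency genes, and no other of these held a GAT site within 5 kb, among 11 called adenines. Of 24 genes of DNA and adenine methylation enzymes, Fto, an AlkB dioxygenase gene whose product removes N6-methyladenine from RNA, held 1 GAT site among the 12 called adenines of the list, in KO S with an IPD ratio of 2.87 at coverage 9. The 18 DNA damage response genes held no GAT site among 16 called adenines. No GAT site lay in or within 5 kb of Alkbh1.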

How the data were processed

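Members and gene lists were chosen with earlier results of these data known. Each line of a deposited list is 1 called adenine. Positions refer to mm10, which the submitters' processing notes name. No source used here gives the caller, aligner, filters or handling of the 2 replicates, so those are not given. Deposited scores of a call start at 20 and, like the deposited identification score, have no stated scale. The deposited IPD ratio is linear, deposited coverage is an unnormalized signal of reads or passes at a base, and the deposited modified fraction was turned into percent. In 3 deposited lists these values stand together in 1 text column, treated as other, and were read by name.

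The lists were read as deposited, with no filter, in Python 3.11.15 with scipy 1.17.1. Contexts matched the strand of the call in 374 of 374 overlapping pairs on opposite strands, and RefSeq promoter sequence (GRCm38.p6) at 59 of 59 places. Intervals of shares are exact (Clopper-Pearson, 95%) and cover counting error only, as if sites were independent. Limits for a count of 0 are 3 counts of the total. Reads need not be different molecules, and depth at uncalled bases is unknown. Local background was the other adenines of the contexts on the called strand. Adenines directly beside the called one stayed in it, though they cannot stand in GAT. Where bases around background GAT were counted, the called adenine itself was among them. Differences within a list were tested by an exact permutation test of 4 paired values with Benjamini-Hochberg adjustment over 10 results, and 8 further comparisons were added and adjusted together after seeing the data. The 4 lists are different groups, and L and S of a genotype may share chromatin. A gene was named when it held 3 or more GAT sites, when a site shown lay in it, or when it was in a gene list and held a site. Sites shown by rule were those with the opposite adenine called and the 2 GATC and 1 other GAT site with the highest identification score in each list. Genes ran from gene start to gene end, without exons. The test was checked on simulated data, and some sequences are not reported here.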

Additional observations from a re-analysis of the deposited data

Results flagged for a closer look

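The base after GAT moved in opposite directions with genotype in the 2 DNA parts for 3 bases, each a difference of single lists that was not tested. For cytosine, the palindrome, the KO share less the WT share was -6.35 points in L and 0.56 in S. For adenine it was -4.51 in L and 0.88 in S, and for guanine 7.94 in L and -3.16 in S. The exact intervals of KO and WT overlapped in each of these 6 comparisons.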

How the results depend on the processing

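Of 153 recomputed values, 121 kept their direction or stayed within the interval of the value as reported. At coverage of 25 or more the GAT share was 1.40% in KO L, 0.868% in WT L, 1.19% in KO S and 3.23% in WT S, KO minus WT was 0.53 points in L, the other way, and -2.04 in S, called minus background was -0.44 points, and GATC made up 0% of the 6, 4 and 6 GAT sites of KO L, WT L and KO S. With dense windows also left out, an alternative chosen after seeing the data, the GAT share at that coverage was 4.76% in KO L, 2.44% in WT L, 3.23% in KO S and 4.67% in WT S, KO minus WT was 2.32 points in L, called minus background 0.18 points and the opposite-strand difference 1.45 points, with GATC again at 0% in KO L, WT L and KO S. At a score of 30 or more GATC made up 4.17% of GAT sites in KO L and 6.45% in KO S, the GAT share was 5.82% in WT S, KO minus WT in S was -1.74 points, and the opposite-strand difference was 0.0177 points. At an identification score of 10 or more the GAT share was 2.71% in KO S and 4.30% in WT S, and the IPD difference of GATC was -0.25. Without dense windows that difference was -0.00375, and on placed chromosomes -0.00125, against 0.00125 as reported, and the modified fraction of GAT minus other adenines before thymine was -2.53 points. Leaving out 1 list at a time moved the IPD difference of GATC between -0.0433 and 0.035 and its identification score difference between -0.50 and 0.17. The causes were not tested, and coverage of 25 left too few sites to compare GATC. At that coverage, and for the modified fraction at a score of 30, no GATC medians could be had in some lists. No paired analysis was possible because both replicates of a group are in 1 list.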
